A study of Homo sapiens with 132 samples.

Results

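ERRFI1, LRIG1, LRIG2, LRIG3, CBL, CBLB and CBLC, the genes of 3 families that act on the EGF receptor itself, were followed through RNA sequencing of gastric cancer cell lines. The members were chosen by name, as 7 of the 65217 Ensembl gene identifiers that every count file lists. ERRFI1 had the widest range of condition means among the members in MKN1 and NCI-N87 cells. Levels are given as CPM (reads of the gene per 1e+06 reads on genes, scaled by edgeR's TMM factors). In MKN1 cells ERRFI1 ranged from 19 CPM after 24 h of afatinib to 222 CPM after 4 h of EGF. In MKN7 cells the highest condition mean of CBLB was 5.11 times its lowest, beside 3.11 times for ERRFI1. CBLB moved in the opposite direction to ERRFI1 under afatinib in MKN1, MKN7 and NCI-N87 cells. LRIG1, LRIG3, CBL and CBLC changed in some cell lines and at some time points. In the main edgeR fit, without a replicate block, LRIG2 passed the test in 1 comparison of treatments. In Hs746T cells 0 members changed under any treatment in that fit. A replicate block compares same-numbered libraries. With it, ERRFI1 at 24 h and CBL and LRIG3 at 4 h passed under afatinib in Hs746T cells. LRIG2 passed in further comparisons under alternative settings.

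A growth factor receptor that has been activated is switched off again at several levels. ERRFI1 encodes MIG6, a cytoplasmic protein that binds the kinase domain of EGFR and ERBB2 and blocks it, and the gene is a known target of ERK signaling, so that the receptor induces its own inhibitor. CBL and CBLB are RING-type ubiquitin ligases that bind the phosphorylated receptor and mark it for endocytosis and degradation in lysosomes, and CBLC is a shorter relative found mainly in epithelial cells. LRIG1 is a membrane protein with leucine-rich repeats and immunoglobulin-like domains that binds ERBB receptors and lowers their level, while the roles of its relatives LRIG2 and LRIG3 are less settled.

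The libraries of MKN1 and Hs746T came from untreated cells and from cells given EGF (5 ng/ml), the anti-EGFR antibody cetuximab (Cet, 1 μg/ml), EGF and cetuximab together, the anti-HER2 antibody trastuzumab (Tra, 5 μg/ml), the EGFR and HER2 kinase inhibitor afatinib (Afa, 0.5 μM), or trastuzumab and afatinib together. MKN7 and NCI-N87 cells, the latter labelled N87, were left untreated or were given trastuzumab, afatinib or both. Each treatment lasted 4 h or 24 h and each of the 44 conditions had 3 replicates. Every cell line is an established line from a gastric cancer, and every control was untreated rather than given solvent. The study describes MKN1 as responsive and Hs746T as unresponsive to cetuximab, NCI-N87 as responsive to trastuzumab, and MKN1, MKN7 and NCI-N87 but not Hs746T as responsive to afatinib. Hs746T cells were grown in another medium than the other lines, so that the medium and the line cannot be told apart. The labels do not say whether replicates were separate cultures, and p-values measure the spread between these libraries only.

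The genes lie on 5 chromosomes (GRCh38, GENCODE 29). ERRFI1 (ENSG00000116285) is at chr1:8004404-8026308 on the minus strand and LRIG2 (ENSG00000198799) at chr1:113073209-113132260 on the plus strand. LRIG1 (ENSG00000144749) is at chr3:66378797-66501263 and CBLB (ENSG00000114423) at chr3:105655461-105869552, both on the minus strand. LRIG3 (ENSG00000139263) is at chr12:58872149-58920522 on the minus strand. CBL (ENSG00000110395) is at chr11:119206276-119313926 and CBLC (ENSG00000142273) at chr19:44777869-44800652, both on the plus strand. Exons of CBL overlap those of MCAM, and exons of LRIG1 those of SLC25A26, in each pair on the opposite strand. Exons of ERRFI1 overlap those of the antisense gene AL034417.4, which the counts do not list. Exons of LRIG2 overlap those of the pseudogene RLIMP2, which had 0 counts, also on the opposite strand. The libraries were directional, but whether the counting used the strand is not given in the sources used here. For ERRFI1, LRIG1, LRIG2 and CBL, reads of the opposite gene can therefore not be told apart with certainty.

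RefSeq promoter windows (GRCh38.p14, 250 bases before and 50 after a start) were at hand for 5 of the 7 members, in 13 windows, and not for CBL and CBLC. The stretches upstream of the outermost starts of ERRFI1, CBLB and LRIG1 are shown because ERRFI1 fell and CBLB rose under afatinib in 3 lines and LRIG1 rose under it in NCI-N87 cells. They lie at chr1:8026310-8026559, chr3:105869553-105869651 and chr3:66501264-66501371, all on the minus strand, and stop before the first annotated exon base. Capitals mark matches on either strand to the CCAAT box, to the GC box core GGGCGG or to the TATA-like run TATATA. These basal promoter motifs were looked for after the windows had been read.
ERRFI1: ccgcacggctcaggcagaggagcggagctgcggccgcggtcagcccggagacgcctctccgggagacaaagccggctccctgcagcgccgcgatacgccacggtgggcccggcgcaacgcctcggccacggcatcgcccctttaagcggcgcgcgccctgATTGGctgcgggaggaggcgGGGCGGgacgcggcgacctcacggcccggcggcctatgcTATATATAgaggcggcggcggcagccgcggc
CBLB: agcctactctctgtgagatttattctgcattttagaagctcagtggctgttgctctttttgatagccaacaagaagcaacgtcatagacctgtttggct
LRIG1: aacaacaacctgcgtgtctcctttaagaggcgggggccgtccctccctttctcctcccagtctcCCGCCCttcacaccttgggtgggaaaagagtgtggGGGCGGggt
The outermost ERRFI1 window held overlapping TATATA matches, as did 3.99% of all 35116 windows of this length, and 1 CCAAT match, as did 34.6% of them. GGGCGG was found in the outermost windows of ERRFI1, LRIG1, LRIG2, LRIG3 and CBLB, and in 45% of all windows. The AP-1 motif TGANTCA had no match in the ERRFI1 window but 2 in the innermost LRIG1 window (share of all windows 7.71%). The EGR motif GCGNGGGCG matched 1 of the 5 CBLB windows (9.43% of all windows), and the E-box CACGTG matched the outermost LRIG3 window (7.26%). The CRE motif TGACGTCA (1.85%), the ETS motif CCGGAAG (10.3%), the forkhead motif GTAAACA (3.42%), TATAAA (11.5%) and the CArG box (1.29%) matched none of the 13 windows.

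The libraries held 25832557 to 69434151 counts on genes, with a median of 50725776. A floor of 3 counts corresponds to 0.0432 CPM in the deepest and 0.116 CPM in the shallowest library and covers counting error only. The epithelial keratin KRT8 had a median of at least 342 CPM in each line, whereas the epithelial cadherin CDH1 was high in MKN7 (243 CPM) and NCI-N87 cells (256 CPM) and low, though above that floor in every library, in MKN1 (2 CPM) and Hs746T cells (0.785 CPM). VIM, a mesenchymal marker, reached 559 CPM in MKN1 and 1595 CPM in Hs746T cells. The leukocyte marker PTPRC stayed at or below 0.664 CPM in every library, and the endothelial marker PECAM1 had a median of 155 CPM in Hs746T cells and at most 9.82 CPM in the other lines. In a bulk library, less RNA per cell and fewer cells of a kind cannot be told apart.

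Levels of different genes were compared per length, in untreated cells at 4 h. As CPM per kilobase of exon, ERRFI1 had the highest level in MKN1 (15.8), MKN7 (38) and Hs746T cells (89.7), and CBLC had the highest in NCI-N87 cells (32.6). CBL followed in MKN1 (7.17) and Hs746T cells (19.7). LRIG1, LRIG2, LRIG3 and CBLB lay between 0.535 and 3.47 on this scale in every line.

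**Figure D1:**
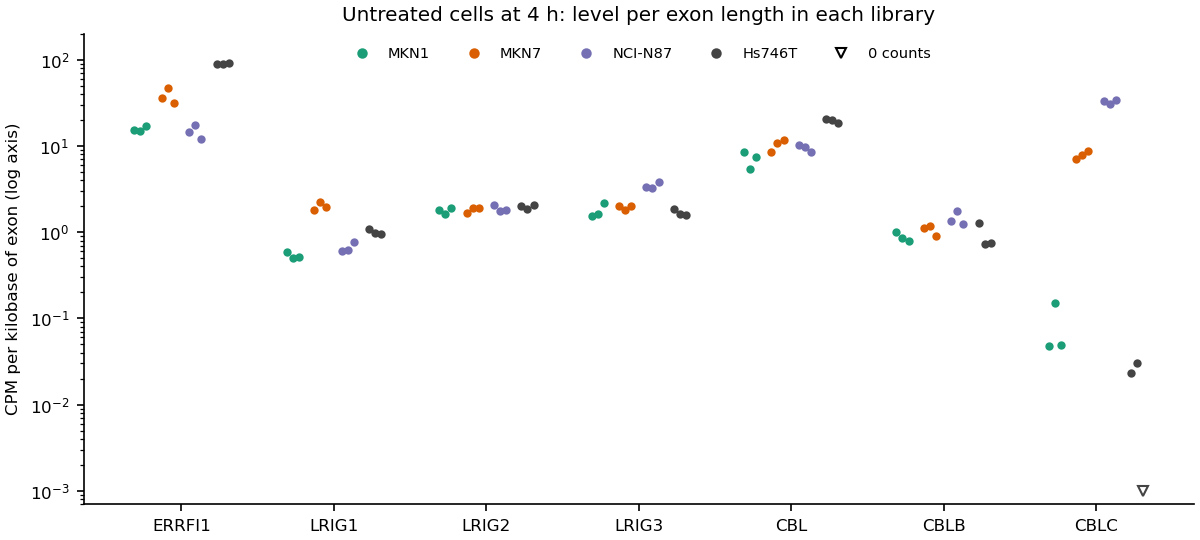
Level of each gene in untreated cells at 4 h, in CPM per kilobase of exon on a log axis, with 1 point per library and colors for the 4 cell lines. ERRFI1 is highest in Hs746T cells (mean 89.7), and CBLC ranges from 32.6 in NCI-N87 cells to 0.0179 in Hs746T cells, where 1 library holds 0 counts (open triangle at the lower edge).

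ERRFI1 was highest in Hs746T cells, with 372, 368 and 386 CPM. MKN7 cells had 151, 194 and 133 CPM, MKN1 cells 63.9, 62.9 and 71.6 CPM, and NCI-N87 cells 60.2, 73.2 and 50.6 CPM. The Hs746T and MKN7 libraries did not overlap with each other or with those of the other lines, while MKN1 and NCI-N87 overlapped. MKN1 and NCI-N87 did not differ beyond their spread (log2 difference 0.11 ± 0.16 SE, adjusted p = 0.555), and every other pair of lines did. At 24 h the 2 neighbours parted, with 0.56 ± 0.16 (SE, adjusted p = 0.00122) between MKN1 and NCI-N87, which missed the threshold without replicate 3 (adjusted p = 0.0818).

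CBLC, the epithelial relative of CBL, separated the lines most. It had 53.4, 49.3 and 54.9 CPM in NCI-N87 cells and 11.5, 12.8 and 14.3 CPM in MKN7 cells. In MKN1 cells the libraries held 4, 10 and 3 counts (0.0772 to 0.245 CPM), and in Hs746T cells 2, 3 and 0 counts. The level thus lay around the floor in the same lines in which CDH1 was low. CBLC was below the filter on low counts in Hs746T cells and was not tested within that line. In the fit of all lines every pair passed at 4 h, and the difference between MKN1 and Hs746T cells, both near the floor, was lost without replicate 2 or 3 (adjusted p = 0.0749 and 0.0877). At 24 h this difference missed the threshold in the main fit and passed with library size scaling (adjusted p = 0.0405) and without replicate 1 (adjusted p = 0.0131).

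LRIG1 was highest in MKN7 cells (12.7, 15.7 and 13.7 CPM), followed by Hs746T (7.73, 6.97 and 6.64 CPM), NCI-N87 (4.25, 4.42 and 5.39 CPM) and MKN1 cells (4.17, 3.48 and 3.64 CPM). All pairs of lines differed except the lowest neighbours, MKN1 and NCI-N87 (-0.31 ± 0.19 SE, adjusted p = 0.133). At 24 h these neighbours differed too, with means of 3.15 CPM in MKN1 and 5.24 CPM in NCI-N87 cells. Between these 2 lines 6 members passed at 24 h, all but CBLB, beside 4 at 4 h. LRIG3 was highest in NCI-N87 cells (19.7, 19.3 and 22.3 CPM), and MKN1, MKN7 and Hs746T, between 9.01 and 13 CPM, did not differ from each other. CBL was highest in Hs746T cells (242, 235 and 217 CPM) and lowest in MKN1 cells (101, 63.9 and 88 CPM), and MKN7 and NCI-N87 did not differ (0.12 ± 0.18 SE, adjusted p = 0.582). LRIG2 had 20.2 to 25.9 CPM in the 12 libraries, and no pair of lines passed the test at 4 h. At 24 h LRIG2 was lower in MKN1 than in NCI-N87 and in Hs746T cells. Both calls were lost with library size scaling (adjusted p = 0.0672 and 0.0809) and without replicate 3 (adjusted p = 0.179 and 0.0639). The difference from Hs746T cells was also lost without replicate 1 or 2. For CBLB, NCI-N87 cells (16.4, 21.4 and 15.2 CPM) were above MKN1 (adjusted p = 0.0213) and Hs746T cells (adjusted p = 0.0346), and the other pairs did not pass. Without replicate 2 or 3 of every group, these CBLB differences and the CBL difference between MKN1 and MKN7 cells missed the threshold, and the CBL difference between MKN1 and NCI-N87 cells missed it in each leave-out (adjusted p 0.0567 to 0.406). With all replicates at 24 h, these CBLB differences and the CBL difference between MKN1 and MKN7 cells missed the threshold.

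These counts stand against a background in which most genes differ between lines. At 4 h, 62.2% of the genes tested differed between MKN1 and MKN7, 67% between MKN1 and NCI-N87, 68.7% between MKN1 and Hs746T, 64.2% between MKN7 and NCI-N87, 65.8% between MKN7 and Hs746T and 68.3% between NCI-N87 and Hs746T. At 24 h these shares were 64.5%, 68%, 68.6%, 65.6%, 66.6% and 68.4%. Between 4 h and 24 h of untreated culture the share was 34.1% for MKN1, 16.4% for MKN7, 0.267% for NCI-N87 and 1.48% for Hs746T cells. Of the members, CBLB was higher at 24 h in MKN1 cells (log2 difference 0.70 ± 0.14 SE, adjusted p = 0.000137) and CBL was lower at 24 h in MKN7 cells (-0.28 ± 0.09 SE, adjusted p = 0.0344). The CBL difference missed the threshold without any one of the 3 replicates (adjusted p 0.0591 to 0.241). Untreated ERRFI1 missed the threshold over time but passed under some alternatives, in opposite directions. In MKN7 cells its mean was 159 CPM at 4 h and 227 CPM at 24 h (DESeq2 log2 difference 0.49, adjusted p = 0.0285). In NCI-N87 cells it was 61.3 and 43.7 CPM (DESeq2 -0.49, adjusted p = 0.00212). No filter or a minimum of 10 counts gave a call in both lines, and library size scaling in MKN7 cells.

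Single replicates stood apart in the same way in many conditions. In Hs746T cells replicate 1 had the highest CBLB level in 14 of 14 conditions, such as 15.9 CPM beside 8.98 and 9.19 CPM in untreated cells at 4 h. In MKN1 cells replicate 1 had the highest CBL level in 14 of 14 conditions and replicate 2 the lowest in 12 of them. CBLB was lowest in replicate 3 in 8 of 8 conditions of MKN7 cells and highest in replicate 2 in 8 of 8 conditions of NCI-N87 cells.

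MKN1 cells given EGF carried more ERRFI1 mRNA at both time points. After 4 h, ERRFI1 rose from 63.9, 62.9 and 71.6 CPM to 236, 202 and 229 CPM, which is 3.38-fold (log2FC 1.76 ± 0.21 SE, adjusted p = 3.25e-07). After 24 h it was at 116, 108 and 135 CPM beside 51, 56.8 and 85.8 CPM in untreated cells, or 1.88-fold higher (log2FC 0.91 ± 0.21 SE, adjusted p = 0.000827). The treated and untreated libraries did not overlap at either time point. The gap between the 4 h and the 24 h effect was -0.85 ± 0.29 (SE) on the log2 scale and did not pass the test (adjusted p = 0.0593), but it passed with DESeq2 (adjusted p = 0.0385), with library size scaling (adjusted p = 0.0431), with a minimum of 10 counts in every library (adjusted p = 0.0484) and with the replicate block (-0.83 ± 0.25 SE, adjusted p = 0.0136).

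CBLB, the second ubiquitin ligase of the family, was the only other member that passed the test under EGF without a replicate block. In the EGF libraries of MKN1 cells at 24 h it had 9.53, 10.1 and 9.86 CPM, against 21.2, 18.9 and 13.6 CPM in untreated libraries, a 1.80-fold fall (log2FC -0.85 ± 0.14 SE, adjusted p = 1.05e-05). All EGF libraries lay below all untreated ones. At 4 h the levels were 8.83, 8.26 and 8.65 CPM with EGF and 12.4, 10.5 and 9.69 CPM without it, and the change missed the threshold (log2FC -0.33 ± 0.14 SE, adjusted p = 0.181). With the replicate block, in which same-numbered libraries of a line and time point are compared, it passed (-0.33 ± 0.09 SE, adjusted p = 0.0107), and so did LRIG3 at 4 h (0.29 ± 0.09 SE, adjusted p = 0.0273). The CBLB effect at 24 h minus that at 4 h was -0.51 and did not pass without the block (adjusted p = 0.0914). It passed with the block (-0.49 ± 0.13 SE, adjusted p = 0.00446), with library size scaling (adjusted p = 0.0421) and without replicate 3 (adjusted p = 0.00894). Thus 1 of 7 members changed at 4 h, where 6.82% of all genes tested were called, and 2 of 7 at 24 h, where 35.8% were called.

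Cetuximab alone gave the reverse picture in MKN1 cells. ERRFI1 fell to 27.3, 34.9 and 22.8 CPM at 4 h, 2.34-fold below untreated cells (log2FC -1.23 ± 0.21 SE, adjusted p = 0.000548). At 24 h it was at 22.9, 29.6 and 25.5 CPM, 2.51-fold below (log2FC -1.33 ± 0.21 SE, adjusted p = 0.000133). No cetuximab library reached the lowest untreated library. CBLB was higher at 24 h, with 29, 29 and 22.6 CPM beside 21.2, 18.9 and 13.6 CPM (log2FC 0.57 ± 0.13 SE, adjusted p = 0.00518). This rise missed the threshold without replicate 2 (adjusted p = 0.0673) and in a fit of the compared groups alone (adjusted p = 0.0541). In all, 1 member changed at 4 h (1.43% of all genes called) and 2 at 24 h (10.8%).

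With EGF and cetuximab together, ERRFI1 lay between EGF and untreated cells. Its level was 137, 121 and 160 CPM at 4 h, still 2.12-fold above untreated cells (log2FC 1.08 ± 0.21 SE, adjusted p = 0.00424), but the call was lost without replicate 1 (adjusted p = 0.189) or replicate 2 (adjusted p = 0.0991). At 24 h it was 80.5, 80.9 and 81.2 CPM, inside the range of the untreated libraries (log2FC 0.33 ± 0.21 SE, adjusted p = 0.287). Against EGF alone, all combined libraries were lower at both time points, without passing the test (log2FC -0.67 ± 0.21 SE, adjusted p = 0.191 at 4 h, and -0.58 ± 0.21 SE, adjusted p = 0.254 at 24 h). With the replicate block at 4 h the difference passed for ERRFI1 (adjusted p = 0.0201) and for LRIG3 (-0.40 ± 0.09 SE, adjusted p = 0.00692). CBLB kept the lower level at 24 h, with 11.6, 11.6 and 9.59 CPM (log2FC -0.71 ± 0.14 SE, adjusted p = 0.000362, and adjusted p = 0.0865 without replicate 1). The share of all genes called against untreated cells was 0.717% at 4 h and 18.6% at 24 h, and against EGF 0.701% and 0.646%, with 1 member at each time point and with 0 members. The comparisons with untreated cells share their 3 control libraries at each time point.

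**Figure D2:**
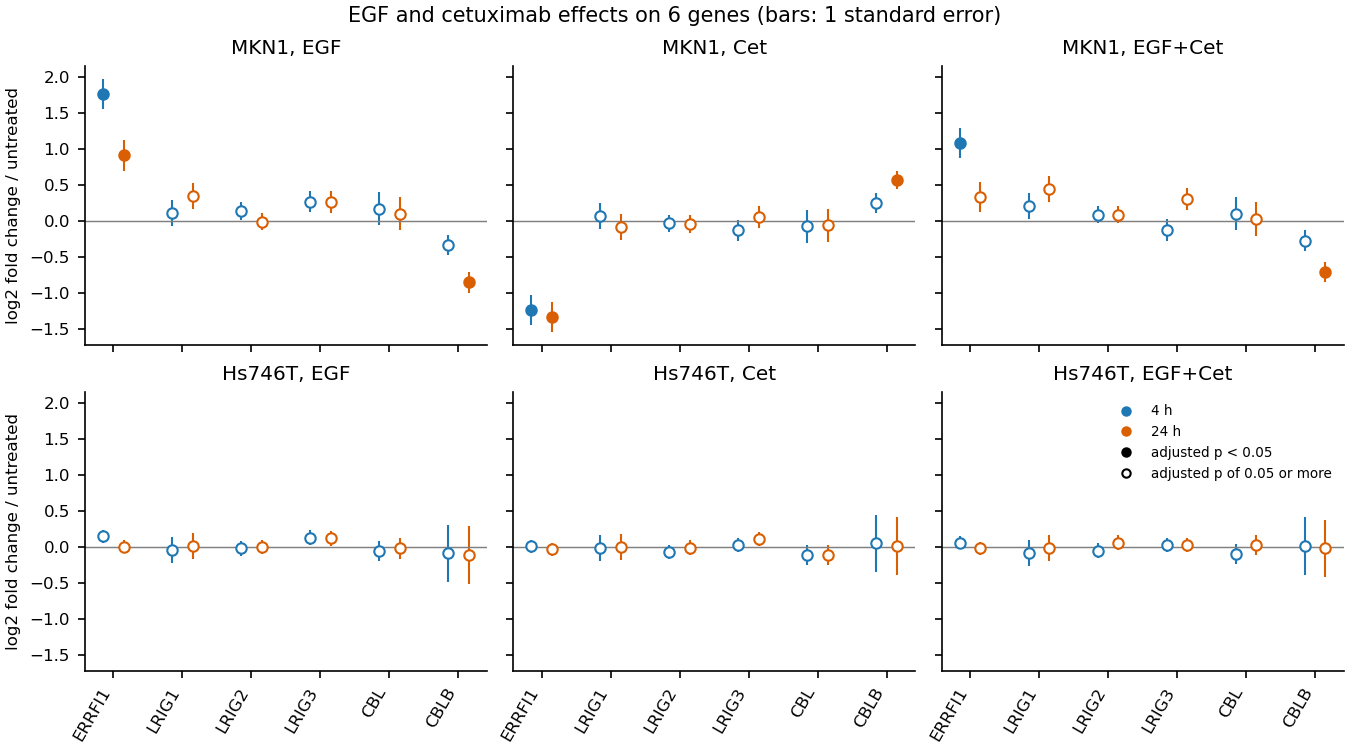
Log2 fold change against untreated cells of the same line and time point for 6 genes under EGF, cetuximab or both, in MKN1 (top) and Hs746T cells (bottom). Points are edgeR estimates with bars of 1 standard error, filled where the adjusted p was below 0.05. ERRFI1 is at 1.76 with EGF and -1.23 with cetuximab at 4 h in MKN1 cells, and no point is filled in Hs746T cells.

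LRIG1, LRIG2, LRIG3 and CBL did not pass the test without the replicate block under EGF, cetuximab or both in MKN1 cells. Their log2FC against untreated cells lay between -0.13 and 0.44 in these 6 comparisons. The largest was LRIG1 at 24 h of EGF and cetuximab, with 4.73, 3.66 and 4.34 CPM beside 3.34, 2.75 and 3.35 CPM (log2FC 0.44 ± 0.18 SE, adjusted p = 0.0829). These libraries did not overlap with the untreated ones. With the replicate block at 24 h, LRIG1 (log2FC 0.34, adjusted p = 0.023) and LRIG3 (0.26, adjusted p = 0.0225) passed for EGF. So did LRIG1 (0.43, adjusted p = 0.00619) and LRIG3 (0.31, adjusted p = 0.00825) for EGF and cetuximab together, although the pairing of these libraries is undecided.

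**Figure D3:**
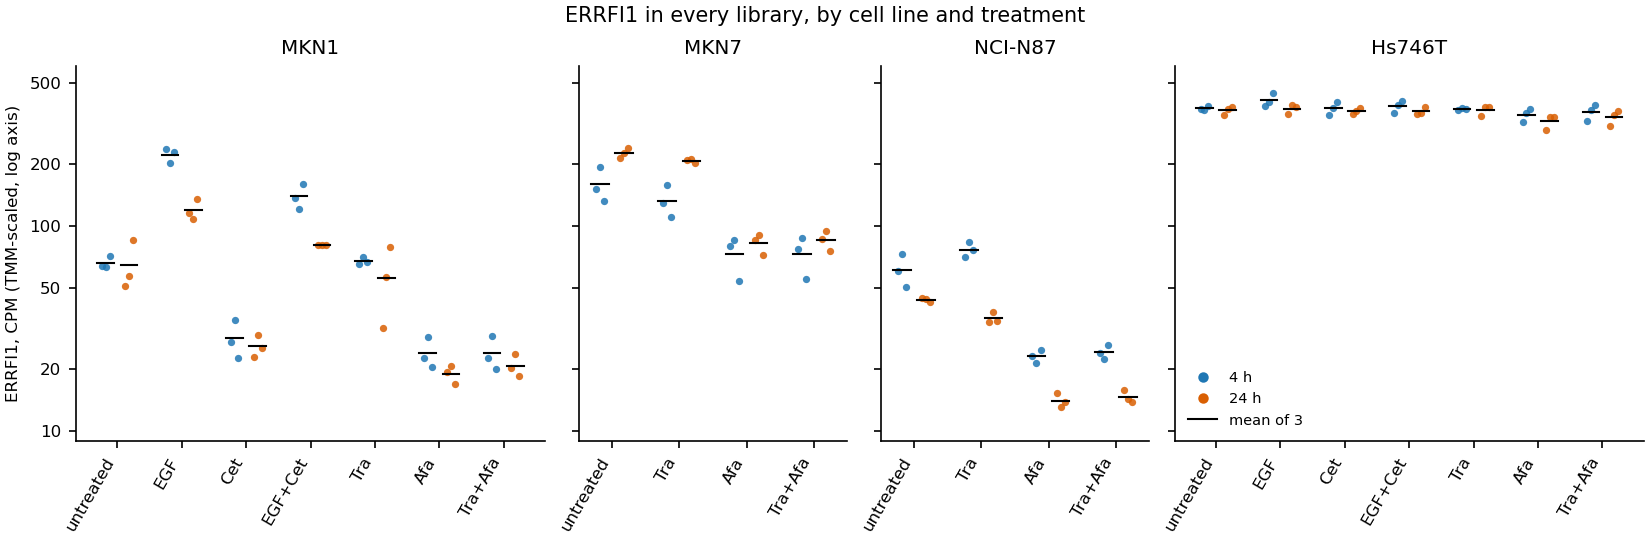
ERRFI1 level in CPM on a log axis in every library, by cell line and treatment, in blue at 4 h and orange at 24 h, with a black line at the mean of 3 libraries. Libraries with afatinib lie below all untreated libraries of the same time point in MKN1, MKN7 and NCI-N87 cells. In Hs746T cells this holds only for afatinib alone at 24 h (295 to 341 CPM beside 348 to 382 CPM). The Hs746T libraries lie between 295 and 444 CPM in every treatment.

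Afatinib lowered ERRFI1 in MKN1, MKN7 and NCI-N87 cells at both time points. In MKN1 cells it was at 22.8, 28.9 and 20.5 CPM after 4 h (2.78-fold lower, log2FC -1.47 ± 0.21 SE, adjusted p = 2.19e-05) and at 19.4, 20.8 and 16.9 CPM after 24 h (3.43-fold lower, log2FC -1.78 ± 0.21 SE, adjusted p = 4.49e-07). In MKN7 cells it fell from 151, 194 and 133 CPM to 80.3, 85.2 and 54.1 CPM at 4 h (2.23-fold, log2FC -1.16 ± 0.17 SE) and from 215, 228 and 239 CPM to 85.1, 90.5 and 72 CPM at 24 h (2.77-fold, log2FC -1.47 ± 0.17 SE). In NCI-N87 cells it fell from 60.2, 73.2 and 50.6 CPM to 23.3, 21.6 and 25 CPM at 4 h (2.62-fold, log2FC -1.39 ± 0.11 SE) and from 44.4, 44.1 and 42.6 CPM to 15.3, 13.1 and 13.9 CPM at 24 h (3.17-fold, log2FC -1.67 ± 0.11 SE). In none of these 6 comparisons did treated and untreated libraries overlap, and the share of all genes that separated in this way is not reported here. The MKN7 libraries with 24 h of afatinib (72 to 90.5 CPM) still overlapped the untreated MKN1 libraries of that time (51 to 85.8 CPM).

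The size of the ERRFI1 fall did not differ detectably among the 3 lines. At 4 h, MKN1 minus MKN7 was -0.34 ± 0.22 (SE, adjusted p = 0.761), MKN1 minus NCI-N87 -0.06 ± 0.23 (adjusted p = 1) and NCI-N87 minus MKN7 -0.28 ± 0.22 (adjusted p = 0.913), all on the log2 scale. At 24 h the same differences were -0.30 ± 0.22, -0.13 ± 0.23 and -0.17 ± 0.22 (adjusted p 0.517 to 0.745). The afatinib effect at 24 h minus that at 4 h was -0.30 ± 0.30 for MKN1, -0.31 ± 0.24 for MKN7 and -0.27 ± 0.15 for NCI-N87. Of these, 0 passed the test, although with the replicate block the MKN7 value did (adjusted p = 0.0213). In MKN1 cells, ERRFI1 under afatinib and under cetuximab could be compared directly: the afatinib libraries were lower by 0.24 ± 0.21 at 4 h (log2FC -0.24 ± 0.21 SE, adjusted p = 1) and by 0.45 ± 0.21 at 24 h (log2FC -0.45 ± 0.21 SE, adjusted p = 0.671), where the libraries did not overlap. Between these treatments edgeR called 0% of all genes at 4 h (262 at an unadjusted p below 0.05, 0 by DESeq2) and 0.0757% at 24 h, and 0 members.

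CBLB rose under afatinib where ERRFI1 fell. In MKN7 cells it went from 13.8, 14.7 and 11.2 CPM to 39.2, 36.2 and 30 CPM at 4 h (2.58-fold, log2FC 1.37 ± 0.20 SE, adjusted p = 3.8e-05) and from 21.9, 19.4 and 11.7 CPM to 76.6, 68.6 and 58.4 CPM at 24 h (3.82-fold, log2FC 1.93 ± 0.20 SE, adjusted p = 1.36e-07). NCI-N87 cells had 38, 45.9 and 39.1 CPM beside 16.4, 21.4 and 15.2 CPM at 4 h (2.33-fold, log2FC 1.22 ± 0.15 SE) and 41.4, 47.7 and 43.3 CPM beside 15.8, 19.3 and 15.4 CPM at 24 h (2.57-fold, log2FC 1.36 ± 0.15 SE). In MKN1 cells the change passed at 24 h, with 29.3, 26.9 and 26 CPM beside 21.2, 18.9 and 13.6 CPM (1.51-fold, log2FC 0.60 ± 0.13 SE, adjusted p = 0.00109), and at 4 h the libraries overlapped (12.3, 12.9 and 10.9 CPM). The MKN1 effect at 24 h minus that at 4 h was 0.46 and did not pass (adjusted p = 0.215). With the replicate block it was 0.47 ± 0.12 (SE, adjusted p = 0.00725). The treated libraries of the 5 comparisons that passed lay above all untreated ones.

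**Figure D4:**
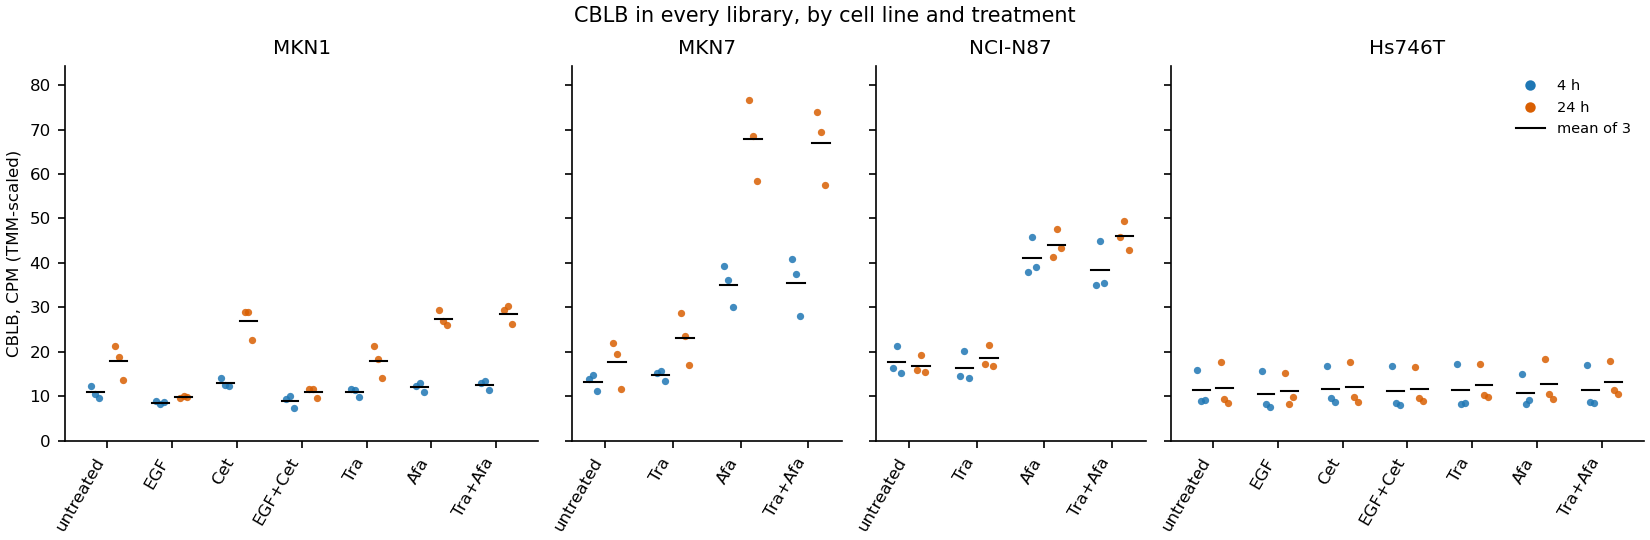
CBLB level in CPM (linear axis from 0) in every library, by cell line and treatment, in blue at 4 h and orange at 24 h, with a black line at the mean of 3 libraries. The afatinib libraries reach 58.4 to 76.6 CPM in MKN7 cells at 24 h, and in Hs746T cells 1 of the 3 replicates lies above the other 2 in every condition.

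The rise of CBLB was larger in MKN7 than in MKN1 cells at 24 h. The difference in effect was -1.33 ± 0.39 (SE, adjusted p = 0.0174) for MKN1 minus MKN7 at 24 h, and it missed the threshold without replicate 2 (adjusted p = 0.236) or 3 (adjusted p = 0.127). At 4 h it was -1.26 ± 0.39 and did not pass (adjusted p = 0.0932), but with the replicate block it was -1.25 ± 0.12 (adjusted p = 9.93e-15). MKN1 minus NCI-N87 at 4 h likewise moved from -1.06 ± 0.39 (adjusted p = 0.197) to -1.07 ± 0.11 (adjusted p = 3.17e-12) with the block. In MKN7 cells the effect was 0.57 ± 0.28 larger at 24 h than at 4 h without the block (adjusted p = 0.176) and 0.59 ± 0.12 with it (adjusted p = 0.000536), and the CBL effect was then lower at 24 h by the same test (-0.31 ± 0.11 SE, adjusted p = 0.0359).

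CBL, the founding ligase of the family, fell at 24 h in MKN7 and NCI-N87 cells. In MKN7 cells it had 74.6, 71.3 and 70.5 CPM with afatinib beside 96.3, 104 and 104 CPM without it (1.41-fold lower, log2FC -0.50 ± 0.09 SE, adjusted p = 9.99e-05). In NCI-N87 cells it had 72.8, 81.9 and 65.9 CPM beside 93.7, 114 and 113 CPM (1.49-fold lower, log2FC -0.57 ± 0.14 SE, adjusted p = 0.00101). The groups did not overlap in either line. The NCI-N87 call was lost with library size scaling (log2FC -0.31, adjusted p = 0.11), under which the median of all genes shifted by 0.26. The effect at 24 h minus that at 4 h did not pass without the block. It was -0.30 in MKN7 (adjusted p = 0.103) and -0.45 in NCI-N87 cells (adjusted p = 0.0756). With the block the NCI-N87 value passed (-0.45 ± 0.14 SE, adjusted p = 0.0107). MCAM, whose exons overlap CBL on the other strand, had a log2FC of -0.51 in MKN7 and 0.23 in NCI-N87 cells at 24 h, and its part in the CBL values was not tested. In MKN1 cells CBL had 82.8, 51.4 and 58.8 CPM beside 93.2, 56.6 and 83.2 CPM at 24 h and did not pass (adjusted p = 0.401). With the replicate block this fall passed (log2FC -0.29 ± 0.12 SE, adjusted p = 0.0404), although the pairing of these libraries is undecided.

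CBLC went down in MKN7 cells at both time points. It had 8.78, 9.21 and 10.3 CPM beside 11.5, 12.8 and 14.3 CPM at 4 h (1.40-fold lower, log2FC -0.49 ± 0.12 SE, adjusted p = 0.00394, and 0.0511 without replicate 1), and 10.2, 8.17 and 8.98 CPM beside 13.9, 12.5 and 14.5 CPM at 24 h (1.50-fold lower, log2FC -0.59 ± 0.12 SE, adjusted p = 0.000221). In NCI-N87 cells the level was lower at 4 h (42.5, 38.7 and 45.7 CPM beside 53.4, 49.3 and 54.9 CPM, log2FC -0.31 ± 0.09 SE, adjusted p = 0.0189, lost in each leave-out) and at 24 h it was 64, 69.5 and 69.7 CPM beside 59.3, 56.2 and 59.4 CPM (log2FC 0.18 ± 0.09 SE, adjusted p = 0.0786, which missed the threshold). It passed with library size scaling (0.44, adjusted p = 4.25e-05), with the compared groups alone (adjusted p = 0.0396), with no filter (adjusted p = 0.0457), with a minimum of 10 counts (adjusted p = 0.00604), with the replicate block (adjusted p = 0.0153) and without replicate 1 (adjusted p = 0.0305). The difference between these effects in NCI-N87 cells passed the test (0.49 ± 0.13 SE, adjusted p = 0.00452, and 0.0559 without replicate 2). In MKN1 cells at 24 h CBLC also passed (log2FC -2.14 ± 0.80 SE, adjusted p = 0.0464), but this rests on 1, 1 and 2 counts with afatinib beside 5, 5 and 8 counts without it. The ratio of the summed counts, scaled to the library totals, was 0.224 with an exact 95% interval from 0.0551 to 0.679 that covers counting error only, and the call was lost with DESeq2 (adjusted p = 0.0623), with library size scaling, with no filter and without replicate 1 or 3.

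LRIG1 rose in NCI-N87 cells, at 24 h. Its level was 8.54, 9.43 and 10.9 CPM with afatinib beside 4.38, 5.12 and 6.23 CPM without it, with no overlap (1.80-fold, log2FC 0.85 ± 0.17 SE, adjusted p = 0.000236). At 4 h the libraries had 5.07, 6.37 and 7.01 CPM beside 4.25, 4.42 and 5.39 CPM, and the rise passed only with the replicate block (log2FC 0.39 ± 0.09 SE, adjusted p = 0.00253, beside 0.40 ± 0.18 and 0.13 without it). The effect at 24 h minus that at 4 h did not pass in the main fit. It passed with library size scaling (0.64, adjusted p = 0.0491) and with the replicate block (0.46, adjusted p = 0.00618). LRIG1 did not change in MKN1 (3.21, 2.71 and 1.99 CPM beside 3.34, 2.75 and 3.35 CPM at 24 h) or MKN7 cells (11.1, 13.9 and 14.2 CPM beside 14.2, 16.9 and 13.8 CPM). The effect at 24 h was higher in NCI-N87 than in MKN7 cells by 1.08 ± 0.25 (SE, adjusted p = 0.000591) and lower in MKN1 than in NCI-N87 cells by the test of MKN1 minus NCI-N87 (-1.13 ± 0.26 SE, adjusted p = 0.000368). SLC25A26, on the other strand of LRIG1, had a log2FC of -0.14 in NCI-N87 cells at 24 h.

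LRIG3 took opposite directions in the 2 lines in which it changed. It rose in NCI-N87 cells at 4 h (23.8, 26.9 and 25.6 CPM beside 19.7, 19.3 and 22.3 CPM, log2FC 0.32 ± 0.09 SE, adjusted p = 0.0152, 0.0674 without replicate 1 and 0.374 without replicate 2) and was at 19.6, 20.2 and 21 CPM beside 21.1, 21.2 and 21.7 CPM at 24 h. In MKN7 cells it fell at 24 h, to 5.64, 5.44 and 5.62 CPM from 9.41, 7.89 and 11 CPM (1.70-fold, log2FC -0.77 ± 0.13 SE, adjusted p = 5.1e-05). The effect at 24 h differed between MKN1 and MKN7 cells (0.79 ± 0.18 SE, adjusted p = 0.00135, and 0.0703 without replicate 3) and between NCI-N87 and MKN7 cells (0.68 ± 0.18 SE, adjusted p = 0.002). From 4 h to 24 h it moved by -0.60 ± 0.18 in MKN7 (adjusted p = 0.0247) and by -0.43 ± 0.13 in NCI-N87 cells (adjusted p = 0.0122). The difference in MKN7 cells missed the threshold without replicate 1 or 3 (adjusted p = 0.132 and 0.161), and that in NCI-N87 cells without replicate 1 or 2 (adjusted p = 0.0834 and 0.239), with library size scaling and with no filter. At 4 h the effects on LRIG1 and LRIG3 were higher in NCI-N87 than in MKN7 cells only with the replicate block (0.46 ± 0.14 SE, adjusted p = 0.0178, and 0.44 ± 0.11 SE, adjusted p = 0.00193), as was LRIG3 in NCI-N87 against MKN1 cells (-0.35 ± 0.11 SE for MKN1 minus NCI-N87, adjusted p = 0.0176). LRIG2 did not pass the test under afatinib alone in any line, with log2FC between -0.17 and 0.20, although in NCI-N87 cells at 24 h it passed with library size scaling (0.46, adjusted p = 0.00291), with a minimum of 10 counts (0.31, adjusted p = 0.0139), with the replicate block (0.20, adjusted p = 0.0419) and without replicate 3 (0.33, adjusted p = 0.0485).

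**Figure D5:**
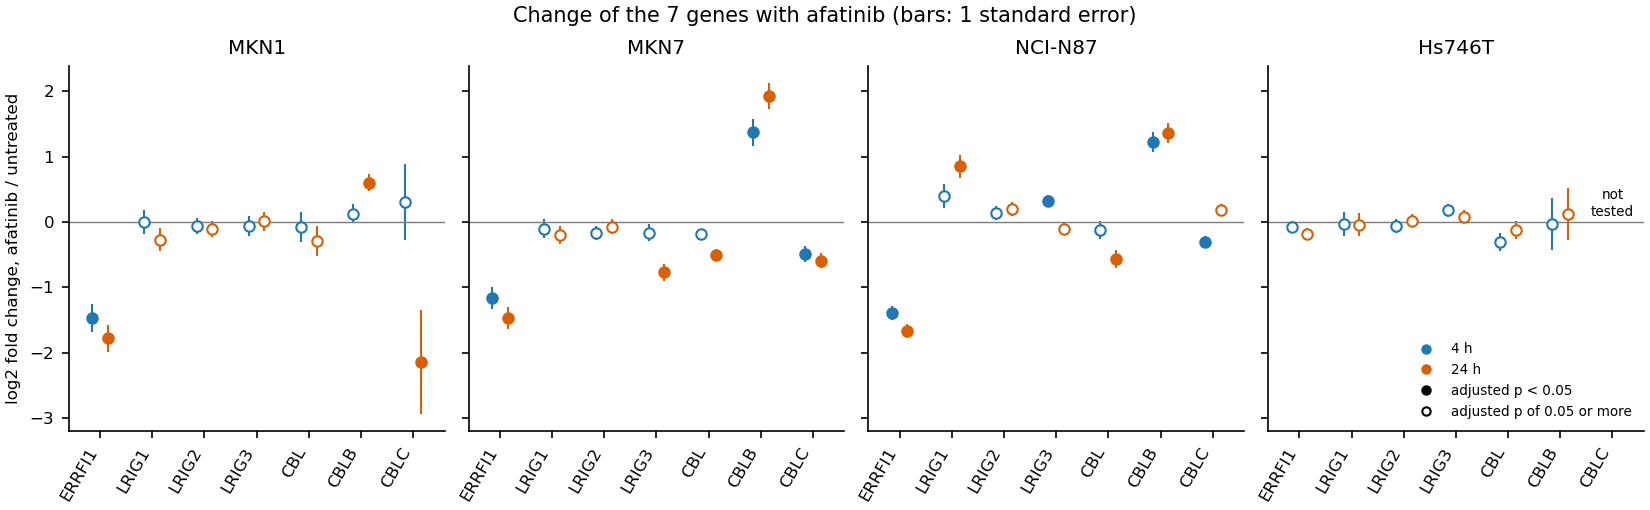
Log2 fold change of the 7 genes under afatinib against untreated cells of the same line and time point, with bars of 1 standard error, filled where the adjusted p was below 0.05. ERRFI1 is filled and below 0 and CBLB above 0 in MKN7 and NCI-N87 cells at both time points, CBLC in MKN1 cells has the longest bar (-2.14 ± 0.80), and no point is filled in Hs746T cells.

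Over the members, afatinib changed 1 of 7 in MKN1 cells at 4 h, where 3.68% of all genes tested were called, and 3 at 24 h (25.6%). In MKN7 cells it changed 3 at 4 h (22.2%) and 5 at 24 h (51.6%), and in NCI-N87 cells 4 at 4 h (18.2%) and 4 at 24 h (62.5%). The share of members was thus above the background in each of these lines at 4 h. At 24 h it was above the background in MKN1 and MKN7 cells and below it in NCI-N87 cells. With 7 members, these differences from the background were not tested. For the differences between time points, the background was 2.77% for afatinib and 9.46% for EGF in MKN1 cells, and for afatinib 18% (MKN7), 35.8% (NCI-N87) and 0% (Hs746T). For those between lines in the afatinib effect it was 1.38% (MKN1 and MKN7), 1.83% (MKN1 and NCI-N87) and 1.01% (NCI-N87 and MKN7) at 4 h and 7.61%, 28% and 21.4% at 24 h.

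The combination of trastuzumab and afatinib also lowered ERRFI1 and raised CBLB. Against untreated cells, ERRFI1 changed by -1.47 ± 0.21 at 4 h and -1.66 ± 0.21 at 24 h in MKN1, by -1.15 ± 0.17 and -1.42 ± 0.17 in MKN7, and by -1.34 ± 0.11 and -1.61 ± 0.11 in NCI-N87 cells (log2FC ± SE). CBLB changed by 1.40 ± 0.20 and 1.92 ± 0.20 in MKN7, by 1.12 ± 0.15 and 1.42 ± 0.15 in NCI-N87, and by 0.65 ± 0.13 at 24 h in MKN1 cells. The members called were 1 and 2 in MKN1 (3.95% and 26.8% of all genes), 4 and 5 in MKN7 (23.4% and 51.9%) and 3 and 4 in NCI-N87 cells (17.3% and 64.7%). CBL in MKN7 cells passed at 4 h here (log2FC -0.27 ± 0.09 SE, adjusted p = 0.0306) but not without replicate 2 (adjusted p = 0.199) or 3 (adjusted p = 0.323). In NCI-N87 cells CBL passed at 24 h (log2FC -0.51, adjusted p = 0.00243). That call was lost without replicate 3 (adjusted p = 0.0902) and with library size scaling (adjusted p = 0.295). LRIG2 in NCI-N87 cells at 24 h missed the threshold but passed with DESeq2 (log2FC 0.26, adjusted p = 0.0357) and library size scaling (0.56, adjusted p = 0.000526). It also passed with no filter (adjusted p = 0.0328), a minimum of 10 counts (adjusted p = 0.00404), the replicate block (adjusted p = 0.0124) and without replicate 3 (adjusted p = 0.032). With the replicate block LRIG2 (adjusted p = 0.0219) and LRIG3 (adjusted p = 0.00333) also passed in MKN7 cells at 4 h, LRIG1 in MKN7 cells at 24 h (adjusted p = 0.0298), and CBL (adjusted p = 0.0361) and CBLC (adjusted p = 0.0152) in NCI-N87 cells at 4 h. These comparisons share the untreated libraries with those of afatinib. Compared directly, the combination and afatinib alone differed in 0 members and 0% of all genes by edgeR in MKN1, MKN7 and NCI-N87 cells at both time points, with 94 to 202 genes and 0 members at an unadjusted p below 0.05 and 0 by DESeq2, and the ERRFI1 difference was at most 0.12 ± 0.21 on the log2 scale.

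Set against trastuzumab, which does not share the untreated libraries, the combination also gave a fall of ERRFI1 and a rise of CBLB. The combination libraries are the same as in the comparison with untreated cells, and only the control differs. ERRFI1 was lower by -1.50 ± 0.21 at 4 h and -1.45 ± 0.21 at 24 h in MKN1, by -0.86 ± 0.17 and -1.30 ± 0.17 for MKN7 and by -1.66 ± 0.11 and -1.29 ± 0.11 in NCI-N87 cells (log2FC ± SE), and the MKN7 call at 4 h was lost without replicate 1 (adjusted p = 0.0522). CBLB was higher by 1.27 ± 0.20 and 1.51 ± 0.20 for MKN7, by 1.24 ± 0.15 and 1.29 ± 0.15 for NCI-N87 and, at 24 h, by 0.65 ± 0.13 for MKN1 cells. In NCI-N87 cells at 24 h LRIG2 passed here (27.8, 29.5 and 30.3 CPM beside 19.9, 22.4 and 21.7 CPM, log2FC 0.43 ± 0.11 SE, adjusted p = 0.00191), as did LRIG1 (log2FC 0.92 ± 0.17 SE). LRIG1 was lower in MKN7 cells at 24 h (log2FC -0.34 ± 0.14 SE, adjusted p = 0.0499), a call that 4 of the alternatives removed. LRIG3 in MKN7 cells at 4 h passed only with the replicate block (-0.32 ± 0.08 SE, adjusted p = 0.00306). CBL at 24 h was lower in MKN7 cells (log2FC -0.36, adjusted p = 0.00273) but did not pass in NCI-N87 cells (log2FC -0.28, adjusted p = 0.0826). With the replicate block the NCI-N87 difference passed (-0.28 ± 0.10 SE, adjusted p = 0.0175). The members called were 1 and 2 in MKN1 (3.08% and 27.9% of all genes), 3 and 6 in MKN7 (20.5% and 44.4%) and 4 and 4 in NCI-N87 cells (19.7% and 61.8%).

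Trastuzumab alone changed 0 members and 0% of all genes by edgeR's test in each line and at each time point. ERRFI1 in NCI-N87 cells had an unadjusted p below 0.05 at both time points, in opposite directions: 70.3, 83.1 and 76.3 CPM at 4 h (log2FC 0.32 ± 0.11 SE) and 34, 37.9 and 34.5 CPM at 24 h (log2FC -0.31 ± 0.11 SE), with adjusted p = 1 each time. No other member of any line had an unadjusted p below 0.05 with trastuzumab, and DESeq2 called 0 members. With the replicate block CBLB passed in MKN7 cells at 24 h (28.8, 23.6 and 17.1 CPM beside 21.9, 19.4 and 11.7 CPM, log2FC 0.41 ± 0.09 SE, adjusted p = 0.0442). Over all genes, 125 to 786 had an unadjusted p below 0.05, and DESeq2 called at most 1. The replicate block called 62 genes for trastuzumab in MKN7 cells at 24 h, 8 and 1 for NCI-N87 cells at 24 h and 4 h, and 0 elsewhere.

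In Hs746T cells, with the highest ERRFI1 level, 0 of 6 members tested changed in any comparison of treatments by edgeR (0% of all genes). In each of them 116 to 1371 genes had an unadjusted p below 0.05, and DESeq2 called at most 2 genes and 0 members. Under the replicate block, edgeR called 3471 genes for afatinib and 311 for the combination at 4 h, 133 and 104 for the same at 24 h, and at most 93 in any other comparison of treatments. After 24 h of afatinib ERRFI1 was at 295, 341 and 338 CPM beside 348, 370 and 382 CPM, without overlap (log2FC -0.18 ± 0.09 SE, adjusted p = 1). With the replicate block this difference passed (-0.19 ± 0.04 SE, adjusted p = 0.033), at 1.14-fold. With EGF at 4 h the libraries had 385, 402 and 444 CPM beside 372, 368 and 386 CPM (log2FC 0.15 ± 0.09 SE, adjusted p = 1). CBL under afatinib at 4 h had 172, 162 and 212 CPM beside 242, 235 and 217 CPM (log2FC -0.31 ± 0.14 SE, unadjusted p = 0.0342, adjusted p = 0.678), and it was the 1 member with an unadjusted p below 0.05 in that comparison. In the blocked fit it passed (-0.31 ± 0.08 SE, adjusted p = 0.0106), as did LRIG3 (0.18 ± 0.06 SE, adjusted p = 0.0254). Among the other comparisons, 1 member had such a value in the combination against trastuzumab at 4 h.

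The difference between the responsive and the unresponsive line was tested directly for ERRFI1. The effect in MKN1 minus that in Hs746T cells was 1.62 ± 0.22 (SE, adjusted p = 3.24e-07) for EGF, -1.22 ± 0.22 (adjusted p = 0.000889) for cetuximab and -1.35 ± 0.22 (adjusted p = 4.71e-05) for afatinib at 4 h, where 0.92%, 0.127% and 0.372% of all genes differed. At 24 h it was 0.87 ± 0.22 (adjusted p = 0.00574), -1.30 ± 0.22 (adjusted p = 0.000399) and -1.58 ± 0.23 (adjusted p = 4.2e-07), with 7.93%, 0.267% and 4.41% of all genes. The cetuximab difference at 4 h missed the threshold without replicate 1 (adjusted p = 0.103), and the EGF difference at 24 h without replicate 1 (adjusted p = 0.168) or 2 (adjusted p = 0.121). No other member differed between these lines in these 6 tests without a replicate block. With the block CBLB differed at 24 h for EGF (-0.77 ± 0.12 SE, adjusted p = 1.49e-07), cetuximab (0.57 ± 0.11 SE, adjusted p = 0.000202) and afatinib (0.50 ± 0.11 SE, adjusted p = 0.000429), and CBLC, with few counts in both lines, for cetuximab (-3.14 ± 0.96 SE, adjusted p = 0.0174).

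Other genes that act on the receptor or below it were counted from 6 lists in the same fits. Of the 8 ERK pathway feedback genes (DUSP phosphatases, SPRY and SPRED proteins), all 8 fell with afatinib at both time points in MKN1, MKN7 and NCI-N87 cells. Of all genes tested, 3.68% were called in MKN1, 22.2% in MKN7 and 18.2% in NCI-N87 cells at 4 h. At 24 h these shares were 25.6%, 51.6% and 62.5%. The log2FC of SPRY4 was -6.05 and that of DUSP6 -5.46 in NCI-N87 cells at 24 h, beside -1.67 for ERRFI1. In MKN1 cells 7 of the 8 rose with EGF at 4 h, among them DUSP6 (log2FC 1.84) and SPRY4 (1.62), and 7 fell with cetuximab at each time point. The share of all genes called was 6.82% for EGF at 4 h, and 1.43% and 10.8% for cetuximab at 4 h and 24 h. In Hs746T cells 0 of the 8 changed in any of these comparisons, in which 0% of all genes were called.

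Of the ERBB receptors, the targets of the members, EGFR fell with afatinib in MKN7 (log2FC -0.54 at 4 h and -0.80 at 24 h) and NCI-N87 cells (-0.43 and -1.36), and ERBB3 rose in both (0.90 and 0.58, and 1.50 and 1.85). At 24 h ERBB2 also rose in MKN7 (0.59) and NCI-N87 cells (0.57) and ERBB4 in MKN7 cells (0.53), so that 3 and 2 of the 4 receptors rose and 1 fell in each (51.6% and 62.5% of all genes called). In MKN1 cells 0 of the 4 receptors changed with afatinib (3.68% of all genes called at 4 h and 25.6% at 24 h). With EGF at 24 h (35.8% of all genes called) EGFR rose (0.62) while ERBB3 (-0.87) and ERBB2 (-0.53) fell. Among the partners of CBL proteins, UBASH3B, a phosphatase that counteracts CBL-dependent receptor loss, fell with afatinib at both time points in MKN1, MKN7 and NCI-N87 cells (log2FC -0.75, -0.85 and -1.14 at 4 h and -1.69, -1.85 and -3.27 at 24 h). At 24 h of afatinib 1 partner rose and 2 fell of 10 tested in MKN1, 2 rose and 6 fell of 8 in MKN7, and 7 fell of 8 in NCI-N87 cells, where 25.6%, 51.6% and 62.5% of all genes were called.

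Other ubiquitin ligases for ERBB receptors were counted beside the CBL family. Of 7 tested, 1 rose and 4 fell in MKN7 and 0 rose and 5 fell in NCI-N87 cells at 24 h of afatinib, among them NEDD4L (log2FC -1.01 and -0.49) and RNF126 (-0.51 and -1.16). In the list of 14 endocytosis and sorting genes, 3 rose and 5 fell in MKN7 (EPS15 by 0.59, RAB7A by -0.39 on the log2 scale) and 6 fell in NCI-N87 cells, and in that of 6 receptor phosphatases and SOCS genes 3 and 4 fell, with PTPN1 at -0.29 and -1.08. In MKN1 cells these 3 lists had 1, 2 and 2 genes that fell and 0 that rose at 24 h. Over all genes tested, 51.6% were called in MKN7, 62.5% in NCI-N87 and 25.6% in MKN1 cells, so that the counts of these lists lie near or below the share of all genes in several cases. The median log2FC over all genes tested was between 0.01 and 0.04 in these 3 comparisons.

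Across the 44 condition means of log2 CPM, each centred on the mean of its line and time point, the members formed opposed patterns. CBLB and ERRFI1 had a Pearson correlation of -0.82, CBL and CBLB of -0.79 and CBL and ERRFI1 of 0.75. LRIG1 and LRIG2 had 0.68, and ERRFI1 and LRIG1 had 0.07. The points share libraries, controls and normalization, and the values are descriptions. Among 10860 protein-coding genes, those most like ERRFI1 were AREG, an EGFR ligand (r = 0.99), IER3 (0.98) and SLC20A1 (0.98). Those most like CBLB were CASTOR3 (0.98), ABHD4 (0.97) and FAM122C (0.97). For CBL they were PRRC2C (0.94), VMA21 (0.94) and SON (0.93), and for LRIG1 NTN1 (0.93), AGAP3 (0.92) and DSE (0.92). LRIG2, whose pattern had an SD of 0.08 only, came closest to ETV6, KIDINS220 and SLC22A4 (0.83 each). CBLC, with values near the floor in MKN1 and Hs746T cells, had SHANK3 (0.64), GLB1L2 (0.63) and KCNK5 (0.62).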

How the data were processed

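Poly(A) RNA was sequenced in paired-end reads from directional libraries. The submitters' processing notes name Trim Galore, STAR and hg38, without versions, and the counter, the annotation and its strand setting are not given in the sources used here. The values deposited by the authors are raw read counts per Ensembl gene for each library, with no normalization. Gene names, positions and exon lengths came from GENCODE 29, in which 8404 identifiers, holding 0.0422% of the counts, had no entry. Groups and replicate numbers came from the labels.

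Each line was fitted with edgeR 4.0.16 (R 4.3.3) over all its libraries, with TMM scaling, filterByExpr (minimum count 10, total 15) and the quasi-likelihood test, without a replicate term. Differences between lines came from 1 fit of all libraries. A gene was called changed at a Benjamini-Hochberg adjusted p below 0.05 over all genes tested (18483 to 19815 per line, 22832 in the joint fit). Differences are log2 fold changes (log2FC), and SE was taken from the test's F value. Where libraries are said not to overlap, this describes the 3 libraries of each group and is no test. The share of all genes without overlap is not reported here. The steps were tested on simulated data. Alternatives were DESeq2 1.42.0, library size scaling, a minimum of 10 counts in each library in place of the filter or no filter, the compared groups alone, a 2-fold criterion, a replicate block within line and time point, and leaving out each replicate number. No pair of replicates held identical counts.

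All 7 members were named, and of the other genes at most 4 per list and comparison, together with the 3 most like each member (for LRIG3 these are not reported here) and the opposite-strand neighbours. The members and lists were chosen with earlier results of these data known. Same-numbered libraries deviated together (every correlation over 0.1) in MKN1 and NCI-N87 cells at 4 h, in MKN7 cells at 4 h and 24 h and in Hs746T cells at 24 h, which pairs them there, and there the blocked value is given beside a result whose call it changed. Elsewhere it is given for some results only, and the larger changes in the counts of calls stand with the limits. In MKN1 cells at 24 h the lowest correlation was -0.0161, in NCI-N87 cells at 24 h 0.0998 and in Hs746T cells at 4 h 0.0474. Promoter windows were those of RefSeq.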

Additional observations from a re-analysis of the deposited data

Results flagged for a closer look

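The following results stood out because the effect of a treatment differed between cell lines or between time points in a test of the difference itself (edgeR, Benjamini-Hochberg adjusted, values on the log2 scale). For ERRFI1, MKN1 minus Hs746T was 1.62 ± 0.22 (SE) for EGF at 4 h and 0.87 ± 0.22 at 24 h, -1.22 ± 0.22 for cetuximab at 4 h and -1.30 ± 0.22 at 24 h, and -1.35 ± 0.22 for afatinib at 4 h and -1.58 ± 0.23 at 24 h. The cetuximab difference at 4 h missed the threshold without replicate 1 (adjusted p = 0.103) and the EGF difference at 24 h without replicate 1 or 2.

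The other differences concerned afatinib. At 24 h, CBLB differed by -1.33 ± 0.39 (adjusted p = 0.0174) between MKN1 and MKN7 cells, which was lost without replicate 2 or 3. LRIG1 had -1.13 ± 0.26 (adjusted p = 0.000368) for MKN1 minus NCI-N87 and 1.08 ± 0.25 (adjusted p = 0.000591) for NCI-N87 minus MKN7. LRIG3 had 0.79 ± 0.18 for MKN1 minus MKN7, lost without replicate 3 (adjusted p = 0.0703), and 0.68 ± 0.18 for NCI-N87 minus MKN7. CBLC had -2.34 ± 0.79 (adjusted p = 0.0172) for MKN1 minus NCI-N87, with 1 to 8 counts in each of these MKN1 libraries and lost without replicate 3 (adjusted p = 0.147), and 0.80 ± 0.29 (adjusted p = 0.0331) for NCI-N87 minus MKN7, lost without replicate 2 or 3. Between time points, 24 h minus 4 h was -0.60 ± 0.18 for LRIG3 in MKN7 cells, and -0.43 ± 0.13 for LRIG3 and 0.49 ± 0.13 for CBLC in NCI-N87 cells, and each of these was lost without some replicate.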

How the results depend on the processing

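Counts of members changed depended most on the size criterion, on the replicate block and on single replicates. With a 2-fold change required as well, the counts in MKN1 cells at 24 h went from 2 to 0 for EGF, 2 to 1 for cetuximab, 1 to 0 for EGF and cetuximab, and 2 to 1 for trastuzumab and afatinib against untreated cells and against trastuzumab. In MKN7 cells the combination went from 4 to 2 against untreated cells and from 3 to 1 against trastuzumab at 4 h, afatinib and the combination from 5 to 2 at 24 h, and the combination against trastuzumab from 6 to 2. In NCI-N87 cells afatinib at both times, the combination at 24 h and the combination against trastuzumab at both times went from 4 to 2.

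With the replicate block no member call was lost. The counts rose in MKN1 cells from 1 to 3 (EGF at 4 h), 0 to 2 (EGF and cetuximab against EGF at 4 h), 2 to 4 (EGF at 24 h), 1 to 3 (EGF and cetuximab at 24 h), 0 to 1 (the same against EGF at 24 h), 0 to 1 (24 h minus 4 h of afatinib) and 0 to 2 (24 h minus 4 h of EGF). They rose in MKN7 cells from 0 to 1 (trastuzumab at 24 h) and 1 to 4 (24 h minus 4 h), in NCI-N87 cells from 3 to 5 (the combination at 4 h) and 2 to 4 (24 h minus 4 h), and in Hs746T cells with afatinib from 0 to 2 at 4 h and 0 to 1 at 24 h. Between lines, the afatinib effect at 4 h went from 0 to 1 (MKN1, MKN7), 0 to 2 (MKN1, NCI-N87) and 0 to 2 (NCI-N87, MKN7), and at 24 h from 2 to 4 (MKN1, NCI-N87), 1 to 2 (MKN1, Hs746T) and 3 to 5 (NCI-N87, MKN7). Between MKN1 and Hs746T cells at 24 h it rose from 1 to 2 for EGF and 1 to 3 for cetuximab. The requirement that every pair of same-numbered libraries correlate above 0.1 was missed in MKN1 cells at 24 h (53 of 63 pairs above it), NCI-N87 cells at 24 h (17 of 18) and Hs746T cells at 4 h (62 of 63), which leaves the pairing there undecided by this rule. The mean correlations there were 0.189, 0.262 and 0.357, beside 0.22 to 0.412 where the requirement was met. The block lies within line and time point, so that it gives no value between untreated lines or times.

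With library size scaling, the median of all genes shifted by up to 0.31 (log2), in NCI-N87 cells with the combination at 24 h. There LRIG3 changed direction, to 0.24 against untreated cells and 0.24 against trastuzumab, and in MKN1 cells the count rose from 1 to 2 for EGF at 4 h and 0 to 2 for its 24 h minus 4 h effect. DESeq2, and likewise a minimum of 10 counts in every library, gave 1 in place of 0 for that EGF effect, 2 in place of 1 for untreated MKN7 and 1 in place of 0 for untreated NCI-N87 cells over time. With no filter, the 24 h minus 4 h effect in NCI-N87 cells had 1 in place of 2 and the untreated NCI-N87 cells over time 1 in place of 0. With the compared groups alone, cetuximab at 24 h in MKN1 cells had 1 in place of 2, untreated MKN7 cells over time 0 in place of 1 and the combination against trastuzumab in NCI-N87 cells at 4 h 2 in place of 4. The causes were not tested.

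Leaving out 1 replicate number gave 1 to 2 members for EGF at 4 h, 0 to 1 for EGF and cetuximab at 4 h, 1 to 2 for cetuximab at 24 h, 0 to 1 for EGF and cetuximab at 24 h, 0 to 1 for the 24 h minus 4 h effect of EGF and 1 to 2 for untreated time in MKN1 cells. It gave 1 to 3 for the combination against trastuzumab at 4 h, 0 to 1 for the 24 h minus 4 h effect and 0 to 1 for untreated time in MKN7 cells, and 2 to 3 for afatinib at 4 h, 2 to 4 for the combination against trastuzumab at 4 h and 0 to 2 for the 24 h minus 4 h effect in NCI-N87 cells. Between lines it gave 0 to 1 (afatinib at 4 h, MKN1 and MKN7), 0 to 1 (cetuximab at 4 h), 0 to 1 (EGF at 24 h), 0 to 2 (afatinib at 24 h, MKN1 and MKN7), 1 to 2 (afatinib at 24 h, MKN1 and NCI-N87), and, for untreated MKN1 and NCI-N87 cells, 2 to 3 at 4 h and 3 to 6 at 24 h. Depth limits CBLC in MKN1 and Hs746T cells, where a library held at most 16 counts.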
